A study of Mus musculus with 5 samples.

Results

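The Ly6 genes described here are Ly6a, Ly6c1, Ly6c2, Ly6e and Ly6i, and each was found by its symbol as 1 row of the authors' deposited Cuffdiff table, so they are 5 of its 24982 rows. RNA was sequenced from macrophages taken out of mouse tumors of the 9609 line, a fibrosarcoma labelled MCA (MCA commonly stands for the carcinogen methylcholanthrene). The MEK1-low group has 2 libraries (line 9609 MEK1-low and the genotype of that name, treated with MEK1-low (GFP) exosomes). The MEK1-hi group has 3 libraries (line 9609 MEK1-hi and the genotype of that name, treated with MEK1-hi exosomes). MEK1 is the kinase that phosphorylates ERK, and exosomes are small vesicles shed by cells. Both groups thus share the 9609 tumor background, and tumor genotype and exosome treatment change together between them, so the labels do not separate one from the other. The labels do not give the mouse strain or age, the promoter behind MEK1, or whether each library came from its own animal. Rejecting and growing tumors appear in the title of the series, but no label assigns either to a group.

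Ly6 proteins are small, cysteine-rich surface proteins held in the outer membrane leaflet by a glycosylphosphatidylinositol (GPI) anchor, and they share a fold with the urokinase receptor. Several of their genes lie side by side in the mouse genome, and interferons are known to induce some of them. In the myeloid lineage they serve mostly as labels: antibodies to Ly-6C mark the inflammatory monocytes that enter tumors and turn into macrophages, and Ly-6A is the stem cell antigen Sca-1.

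The table holds 1 pooled FPKM per group (fragments per kilobase of transcript, scaled to the mapped fragments of the library, a level corrected for transcript length and library size), so levels of different genes can be set side by side but no spread between libraries can be given. Depth per library is unknown from it, and the labels name a target of about 25000000 reads per sample. The measure of error is Cuffdiff's p value and its q value, the adjusted p over 12311 tested rows. As nothing says that libraries came from separate animals, p and q reflect only how much these samples varied, which could be technical variation. Every direction is MEK1-hi relative to MEK1-low, and a gene was called at a q of 0.05. The macrophage label was checked first. All 10 macrophage markers were present, with summed levels of 11579 FPKM (MEK1-low) and 12974 FPKM (MEK1-hi), led by the complement genes C1qa and C1qb, and 0 of 10 were called by Cuffdiff or had an unadjusted p under 0.05. Map2k1, which encodes MEK1, is not deleted or driven in the macrophages as far as the labels say, and the authors' deposited table listed it at 38.4 and 41.5 FPKM (q = 0.9998).

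All 5 Ly6 transcripts were measured at higher levels in the MEK1-hi macrophages, and Ly6a and Ly6c2 passed the test. Ly6a rose 2.27-fold and Ly6c2 2.07-fold. Ly6c1 and Ly6i had folds of 2.28 and 1.73 without passing over all genes, and Ly6e, the most abundant member, had a fold of 1.26. Cuffdiff thus called 2 of 5 members higher and 0 lower, where 0.999% of all tested rows were called higher and 0.325% lower. Without adjustment, 4 of 5 members were higher at a p under 0.05, against 3.5% of all tested rows, and 0 were lower, against 2.58%. The median log2 fold change of the members was 1.05, and that of all tested rows was -0.02.

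**Figure D1:**
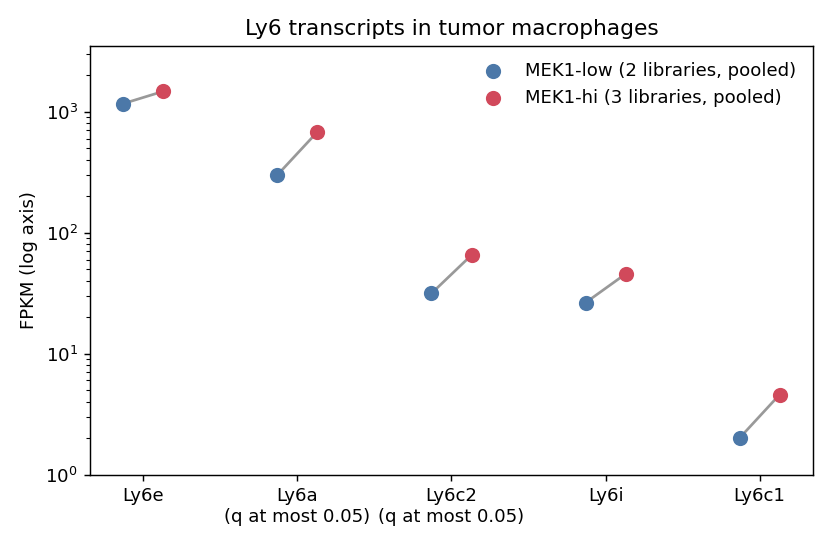
Pooled FPKM of each Ly6 member (log axis) in MEK1-low (blue) and MEK1-hi (red), joined by a line per gene, 1 value per group with no error bar. Levels run from 2.01 FPKM for Ly6c1 in MEK1-low to 1475 for Ly6e in MEK1-hi, and every red point lies above its blue one.

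The order of the levels was the same in both groups: Ly6e, then Ly6a, Ly6c2, Ly6i and Ly6c1. Neighbours in that order could not be tested against each other, because the table has no spread for a level. Ly6c2 and Ly6i lay closest, with a ratio of Ly6i to Ly6c2 levels of 0.838 (MEK1-low) and 0.699 (MEK1-hi). The summed FPKM of the 5 members was 1528 and 2273. Ly6e made up 76.4% of that sum in MEK1-low and 64.9% in MEK1-hi, and its level was 3.89 and 2.16 times that of Ly6a.

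Ly6a encodes Sca-1, the antigen used to enrich blood stem cells, which activated lymphocytes, endothelium and some fibroblasts also carry. The authors' deposited table lists it on mm10 chromosome 15 at 74994877 to 74998031, where its level was 300.1 FPKM for MEK1-low and 682 for MEK1-hi. Its log2 fold change was 1.18, with a Cuffdiff statistic of 3.02 and q = 0.00676 as deposited by the authors. Its p of 5e-05 is the smallest that occurs in the authors' deposited table and is shared by 91 rows, so Ly6a cannot be ranked by p within them. Its level stood at rank 192 among tested rows in MEK1-low and at rank 67 in MEK1-hi. A larger log2 fold change was found in 165 tested rows, or 1.34%. Its gain of 381.9 FPKM was exceeded in 21 of the tested rows.

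Ly6c2 encodes the main form of the Ly-6C antigen on inflammatory monocytes. It lies at 75108161 to 75111971 on the same chromosome, and the authors' deposited table gives 31.5 FPKM for MEK1-low and 65.3 for MEK1-hi. The log2 fold change was 1.05 (statistic 2.41, q = 0.0118 in the authors' deposited table). A larger log2 fold change was found in 209 tested rows, or 1.70%.

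Ly6c1 encodes the closely related form known from endothelium and lymphocytes. It lies at 75044018 to 75048837 and was the least abundant member, at 2.01 and 4.59 FPKM in the authors' deposited table. Its log2 fold change of 1.19 was close to that of Ly6a, but Cuffdiff did not call it (p = 0.0275, q = 0.607 in the authors' deposited table). Of 1771 tested rows with a mean FPKM within 1.5 times of that of Ly6c1, 14 were called, and the smallest called change among them was 1.12 in size on the log2 scale, which is below the value for Ly6c1. With a pseudocount of 1 its log2 fold change became 0.89.

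Ly6i encodes an antigen of the same kind described on bone marrow and monocytic cells. It lies at 74979534 to 74983430, with 26.4 and 45.6 FPKM in the authors' deposited table. Its log2 fold change was 0.79 and was not called over all genes (p = 0.0066, q = 0.252 in the authors' deposited table). Among 1700 tested rows of like abundance, by the same limit of 1.5 times, the smallest called change was 0.86 in size on the log2 scale.

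Ly6e encodes an interferon-induced surface protein known to limit the entry of coronaviruses and, in the mouse placenta, to bind a cell fusion protein. It lies at 74955025 to 74959904, and the authors' deposited table gives 1168 FPKM for MEK1-low and 1475 for MEK1-hi. The log2 fold change of 0.34 did not pass the test (p = 0.322, q = 0.9998 in the authors' deposited table). A larger log2 fold change was found in 11.3% of tested rows. Of 32 tested rows of like abundance, 0 were called by Cuffdiff. A difference in Ly6e was therefore not shown, nor were equal levels, and no interval could be derived from the table.

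**Figure D2:**
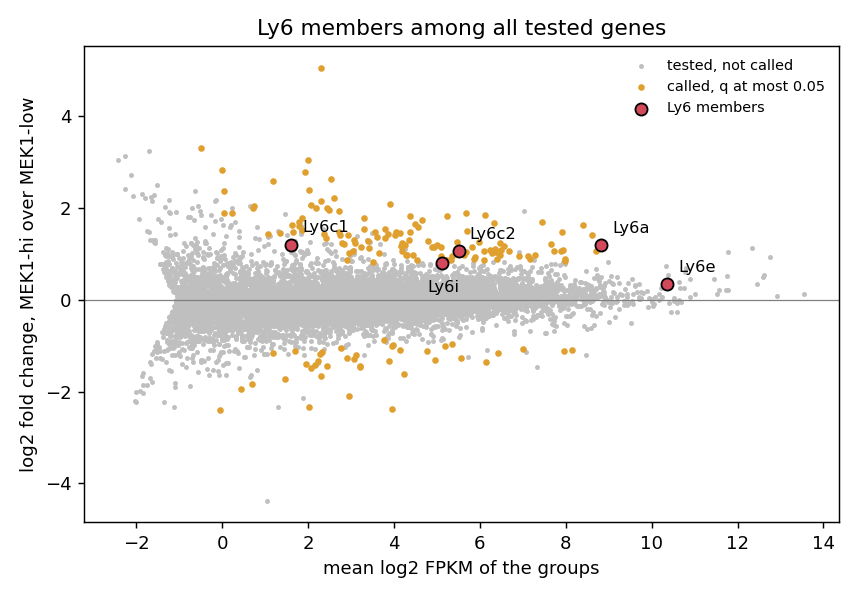
Log2 fold change (MEK1-hi over MEK1-low) against the mean log2 FPKM of the groups, for tested rows above 0 in both groups, with called rows in orange and the Ly6 members in red. Ly6a lies at 1.18 among few genes of its abundance, Ly6c1 at 1.19 at the low end, and Ly6e at 0.34 at the high end.

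The calls of Ly6a and Ly6c2 rest on the p values as deposited. Under the Benjamini-Yekutieli adjustment, which allows any dependence between genes, the adjusted p was 0.0676 for Ly6a and 0.118 for Ly6c2. With it, 0 members and 0 of all tested rows were called. Ly6a has the smallest deposited p, so 0.0676 is the lowest adjusted p of any row here. This setting could therefore call no gene, and nothing about the members can be read from it. With p taken from the authors' deposited statistic and a normal distribution, the unadjusted p was 0.00253 for Ly6a and 0.0158 for Ly6c2. The Benjamini-Hochberg adjusted p for Ly6a was then 0.495. That setting called 0 members and only 15 of the 12311 tested rows.

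In the authors' loci, the 5 members form an unbroken block of 156.9 kb on chromosome 15, with Ly6e on the plus strand at one end and Ly6i, Ly6a, Ly6c1 and Ly6c2 following on the minus strand. Within 500 kb of the block lay 28 further rows, of which 5 were tested. Of those 5, 0 were called by Cuffdiff and 0 had an unadjusted p under 0.05. The highest level among them was 7.86 FPKM. At 2.01 and 4.59 FPKM, Ly6c1 was not called with a log2 fold change of 1.19. A lack of calls at such low levels therefore does not show equal levels. On the side of Ly6e, the authors' deposited table lists Ly6d, a marker of early B cells and epithelia, at 6.56 and 7.86 FPKM (q = 0.9998). Farther out on that side, Lynx1, which modulates nicotinic receptors, had a log2 fold change of 0.27, Them6 one of -0.08 and Arc, an immediate early gene of neurons, one of 0.33. Their levels in the authors' deposited table were 0.648 and 0.780 FPKM (Lynx1), 6.68 and 6.31 (Them6) and 4.59 and 5.76 (Arc). On the side of Ly6c2, the nearest tested row was Gpihbp1, which holds lipoprotein lipase on capillaries, at 0.972 and 0.959 FPKM in the authors' deposited table (q = 0.9998). Ly6g, the gene of the neutrophil antigen and the row next to Ly6c2, was not tested and was listed at 0.0348 and 0.0612 FPKM in the authors' deposited table.

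**Figure D3:**
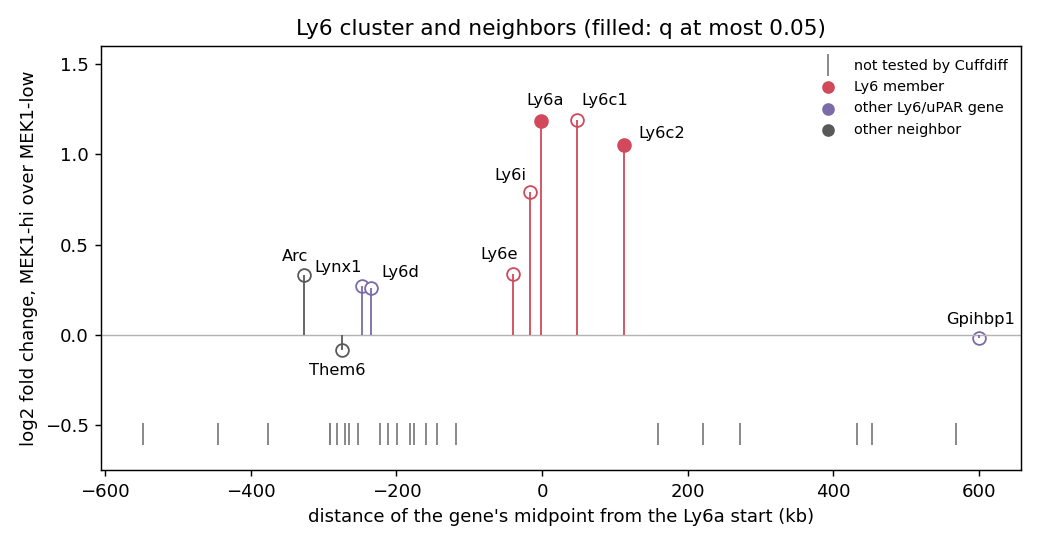
Log2 fold change of the tested rows on chromosome 15 within 500 kb of the Ly6 block, against the distance of each gene's midpoint from the Ly6a start in kb, with filled points for q at most 0.05 and grey ticks for rows Cuffdiff did not test. Within the block the values are 0.34 for Ly6e, 0.79 for Ly6i and 1.05 to 1.19 for Ly6a, Ly6c1 and Ly6c2, and the flanking tested genes lie between -0.08 and 0.33. The flanking tested genes reach at most 7.86 FPKM.

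Among these members, reads could be divided between copies. In the principal coding sequences of GENCODE M21, Ly6c1 and Ly6c2 were 97.7% identical (387 of 396 aligned positions), Ly6a and Ly6i 86.4%, and the other pairs without Ly6e between 81.5% and 82.0%. Ly6e was 45.1% to 49.6% identical to the rest. At the length of the sequenced reads, 100 bases, 14.9% of the windows in Ly6c2 transcripts and 10.1% of those in Ly6c1 occurred unchanged in a transcript of another gene, and 74.4% and 56.7% matched a gene of the block or its neighbours with 2 or fewer mismatches. For Ly6a these shares were 1.45% and 16.3%, for Ly6i 0% and 2.08%, and for Ly6e 0% in both. A pair of reads covers more than 1 window, and the authors' rule for such reads is not known here. Most of the shared windows of Ly6c1 matched Ly6c2, but 10.8% of its windows matched Ly6a with 2 or fewer mismatches, and 1.08% did so unchanged. The level of Ly6a was 149.4 times that of Ly6c1 in MEK1-low and 148.6 times in MEK1-hi. The value of Ly6c1, and its split from both Ly6a and Ly6c2, is therefore uncertain, and how reads were assigned to these genes was not tested. Summed over Ly6c1 and Ly6c2 the level was 33.5 FPKM for MEK1-low and 69.9 for MEK1-hi, a fold of 2.09, and summed over Ly6a, Ly6c1, Ly6c2 and Ly6i it was 360.0 and 797.5, a fold of 2.21. These sums have no test. Ly6c2 stood 15.7 times above Ly6c1 in MEK1-low and 14.2 times above it in MEK1-hi.

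**Figure D4:**
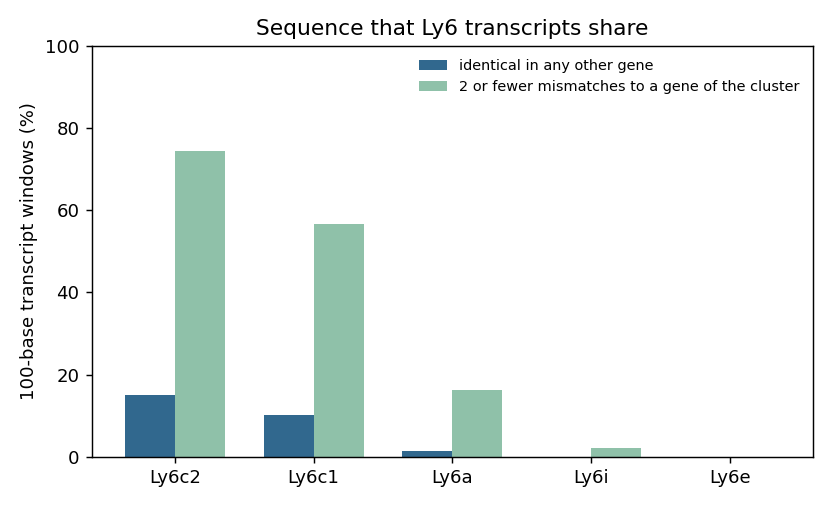
Share of 100-base windows in the transcripts of each Ly6 member that occur unchanged in a transcript of any other gene (dark bars) or with 2 or fewer mismatches in a gene of the chromosome 15 block or its neighbours (light bars), in percent. Ly6c2 and Ly6c1 share 74.4% and 56.7% of their windows at 2 or fewer mismatches, and Ly6e shares 0%.

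Ly6c1 (fold of 2.28, not called) and Ly6c2 (fold of 2.07, called) are the members for which a promoter entry was matched. The 250 bases before their start sites are shown to compare these upstream sequences. They are from RefSeq on GRCm38.p6, minus strand, written 5′ to 3′, and each stops at the base before the RefSeq start, which is also the end of the authors' locus. The outermost start in GENCODE M21 lies 7 bases from it for Ly6c1 and 1 base for Ly6c2. RefSeq entries were matched for 2 of the 5 members. Ly6a, Ly6e and Ly6i are named only. Capitals mark bases that differ between the aligned sequences or stand opposite a gap. The first 31 bases of the Ly6c1 sequence and the last 25 of the Ly6c2 sequence align to nothing in the other window and are left in lower case.
Ly6c1, chr15:75048838-75049087: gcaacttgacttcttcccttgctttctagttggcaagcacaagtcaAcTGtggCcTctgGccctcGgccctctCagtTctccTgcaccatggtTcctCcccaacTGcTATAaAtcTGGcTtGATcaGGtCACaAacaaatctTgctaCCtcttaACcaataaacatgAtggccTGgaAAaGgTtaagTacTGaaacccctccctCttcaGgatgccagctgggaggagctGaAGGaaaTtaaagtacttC
Ly6c2, chr15:75111972-75112221: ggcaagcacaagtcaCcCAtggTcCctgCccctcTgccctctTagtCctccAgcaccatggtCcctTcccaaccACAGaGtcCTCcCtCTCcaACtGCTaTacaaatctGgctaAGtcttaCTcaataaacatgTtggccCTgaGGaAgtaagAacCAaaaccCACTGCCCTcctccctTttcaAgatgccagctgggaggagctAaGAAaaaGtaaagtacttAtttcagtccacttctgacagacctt

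Over the 228 columns that the promoter sequences share in this alignment, 164 bases (71.9%) were identical, 52 differed and 12 stood opposite a gap. The promoters were thus less alike than the coding sequences. A pair of interferon motifs was searched on both strands: the gamma-activated site TTCNNNGAA and the interferon-stimulated response element core GAAANNGAAA. Neither string was in either window. Of 32851 RefSeq promoter entries of the same length, 7.02% held the first and 2.98% the second.

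Other genes of the Ly6 and urokinase receptor family were mostly listed at or near 0. Of 42 symbols listed, 40 had a row of their own and 6 of these were tested, with 0 called by Cuffdiff and 0 at an unadjusted p under 0.05. Their median log2 fold change was -0.02. The abundant one was Plaur, the urokinase receptor of migrating myeloid cells, at 206 and 195 FPKM in the authors' deposited table (q = 0.9998). Cd59a, which blocks the membrane attack complex, had 3.60 and 2.66 FPKM there (q = 0.9998 in the authors' deposited table), and Ly6g6e had a log2 fold change of -0.01. Levels of 0 were listed for 18 of the 40 in MEK1-low and 22 in MEK1-hi.

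The genes that build and attach the GPI anchor, by which Ly6 proteins are held, were also examined. Of 27 tested, 0 were called by Cuffdiff and 0 had an unadjusted p under 0.05, with a median log2 fold change of -0.05 and a range from -0.35 to 0.38. Dpm2 and Dpm3, subunits of the enzyme that makes the mannose donor, were the most abundant, with log2 fold changes of 0.06 and -0.15.

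Interferon response genes, from lists that hold none of the members, are given beside the members. Over all tested rows, 0.999% were called higher and 0.325% lower (3.5% and 2.58% at an unadjusted p under 0.05). Of 31 tested genes of the interferon-gamma response, 26 were called higher and 0 lower (29 and 0 at an unadjusted p under 0.05). Their median log2 fold change was 1.27. Gbp4 and Tgtp1, GTPases that act against intracellular microbes, had the largest statistics among them, with log2 fold changes of 2.07 and 2.78. Of 36 tested genes of the type I interferon response, 0 were called by Cuffdiff, 3 passed an unadjusted p of 0.05, all of them higher, and the median was 0.16. The most abundant of these, the antiviral membrane protein genes Ifitm3 and Bst2, had 0.35 and 0.20. The interferon-gamma list ranged from 0.23 to 3.04, and all 5 members lay within that range. The ranges of the monocyte, T cell, NK cell, plasmacytoid dendritic cell and progenitor lists below also held all 5. Lying within a range therefore does not mark out a list. The type I list ranged from -0.31 to 0.64. Ly6e at 0.34 lay within this range too, and the other 4 members lay above it. The difference between the members and either list was not tested.

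**Figure D5:**
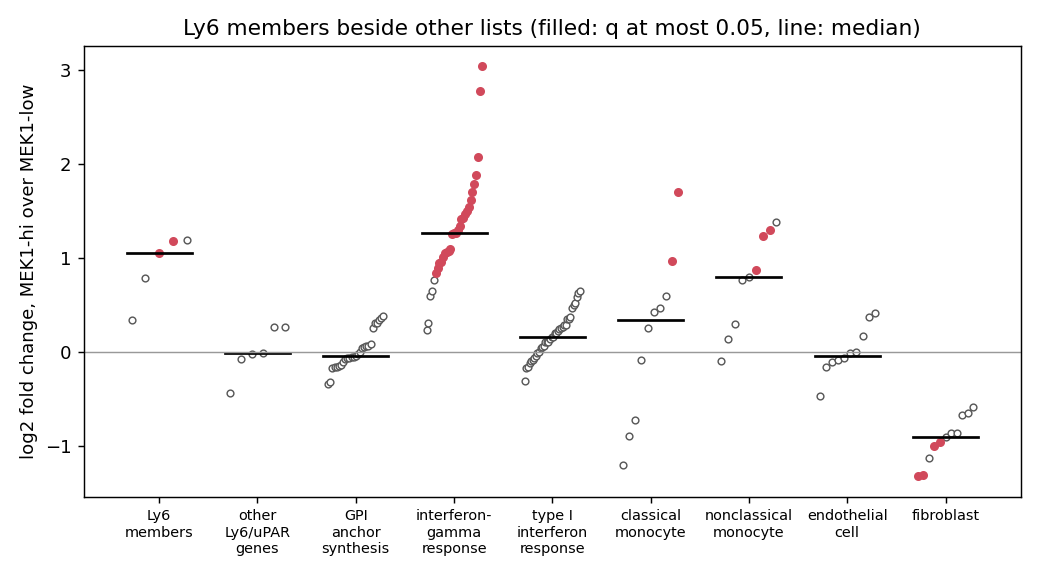
Log2 fold change (MEK1-hi over MEK1-low) of every tested gene in the Ly6 set and in 8 other lists, 1 point per gene, filled where q is at most 0.05, with a line at the median. The Ly6 median of 1.05 stands beside 1.27 for interferon-gamma response genes, 0.16 for type I response genes and -0.90 for fibroblast markers.

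Other cells that carry Ly6 antigens could be in a macrophage preparation, and in bulk samples fewer cells of a type cannot be told apart from less RNA per cell. Of 10 classical monocyte markers, which Ly6c2 is used with, 2 were called higher (Plac8 with a fold of 1.96 and Hp with 3.25) and 0 lower. The shares of all tested rows were 0.999% called higher and 0.325% called lower, and 3.5% and 2.58% at an unadjusted p under 0.05. At an unadjusted p under 0.05, 3 of the 10 monocyte markers were higher (Plac8, Hp and Ms4a4c) and 3 lower (Fn1, F13a1 and Vcan). The median log2 fold change of the 10 was 0.34. Their summed level was 1291 FPKM for MEK1-low and 1096 for MEK1-hi, and this order rests on 1 gene: Fn1, which encodes fibronectin, stood at 535.2 FPKM and then 231.9 in the authors' deposited table, and the other 9 summed to 756.1 and 863.8. Of 9 tested nonclassical monocyte markers, 3 were called higher, among them Ace (2.34-fold) and Treml4 (2.45-fold), with summed levels of 518 and 596 FPKM. Most of that sum is Nr4a1 (309.3 and 339.4 FPKM in the authors' deposited table), and the other 8 summed to 208.4 and 256.8. At an unadjusted p under 0.05, 6 of the 9 were higher and 0 lower, and the median was 0.80. The part of monocytes in the Ly6c2 result was not tested.

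Endothelial markers, cells known for Ly6a and Ly6c1, summed to 21.1 and 21.4 FPKM over 12 genes, with 0 of 10 tested called by Cuffdiff, 0 at an unadjusted p under 0.05 and a median log2 fold change of -0.04. Pecam1 and Egfl7, the most abundant, had log2 fold changes of 0.37 and -0.11, and without Pecam1 the sums were 17.0 and 16.2. Fibroblast markers are from another kind of cell known to make Ly6a. Of 11 tested, 4 were called lower and 0 higher (9 and 0 at an unadjusted p under 0.05). The share of all tested rows called lower was 0.325% (2.58% at an unadjusted p under 0.05). The fibroblast markers summed to 1335 FPKM for MEK1-low and 791 for MEK1-hi. Acta2, the actin of contractile fibroblasts, and Col6a3, a collagen chain, had log2 fold changes of -1.32 and -1.31. The part of endothelial cells and fibroblasts in the Ly6a and Ly6c1 results was not tested. T cell markers summed to 40.1 and 38.3 FPKM over the 10 of 14 genes with a row of their own, with 0 called by Cuffdiff. That sum is mostly Cd4 (27.8 and 19.3 FPKM in the authors' deposited table). The other 9 summed to 12.3 and 19.0, which is 1.54 times as much in MEK1-hi, and the median log2 fold change of the 10 was 0.66. At an unadjusted p under 0.05, 1 of the 10, Cd8a, was higher and 1, Cd4, lower.

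Of the 8 blood progenitor markers, Kit, the stem cell factor receptor, was called higher (2.65-fold) among 7 tested, and the summed level was 64.2 and 77.8 FPKM. At an unadjusted p under 0.05, 3 were higher and 2 lower, and the median log2 fold change was 0.04. Without Procr, which encodes the endothelial protein C receptor, the sums were 39.2 and 35.8. NK cell markers summed to 18.8 and 49.3 FPKM, with 2 of 7 tested called higher, Klrk1 (3.44-fold) and Tbx21 (4.14-fold). The share of all tested rows called higher was 0.999% (3.5% at an unadjusted p under 0.05). At an unadjusted p under 0.05, 6 of the 7 were higher and 0 lower, and the median log2 fold change was 1.53. Ncr1, Klrb1c and Eomes, also on the NK cell list, were not tested. The authors' deposited table gives them 0.0737 and 0.0889, 0.0288 and 0.0903, and 0.0862 and 0.182 FPKM. The rise in the sum thus comes from the other genes of the list. Neutrophil markers summed to 94.1 and 86.2 FPKM, with 0 of 5 tested called by Cuffdiff and, at an unadjusted p under 0.05, 1 higher and 2 lower. Without Mmp9, a secreted protease, the neutrophil sums were 56.5 and 63.6 FPKM. Plasmacytoid dendritic cell markers, of which Bst2 is also an interferon response gene, summed to 491 and 566 FPKM. Without Bst2 the other 9 summed to 54.7 and 65.8 FPKM. Of the 10, 0 were called by Cuffdiff, and 2 were higher and none lower at an unadjusted p under 0.05. No marker in these cell type lists was listed at 0 in either group. The part of lymphoid and progenitor cells in the Ly6a result was not tested.

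The tested genes closest to the called members in level and difference were sought by the Euclidean distance over the log2 FPKM of both groups, which are only 2 pooled values per gene. Nearest to Ly6a were the chemokine gene Cxcl10 (distance 0.19), AW112010 (0.33) and Rn45s (0.36), a ribosomal RNA precursor. Cuffdiff called Cxcl10 and AW112010 but not Rn45s (q = 0.833 in the authors' deposited table). Near to Ly6c2 were Gbp3 (0.15), a guanylate-binding protein gene, and Crlf2 (0.20), a cytokine receptor chain gene, both called higher.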

How the data were processed

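RNA-seq of 5 libraries was summarised by the authors in 1 Cuffdiff gene table. Per the labels' protocols, RNA with an integrity number above 8.0 was used, and 750 ng went into stranded poly(A) libraries that were read as 100-base pairs. The submitters' processing notes name mm10, TopHat, Cufflinks, Cuffdiff and FastQC 0.73, without their roles. The authors deposited 1 pooled FPKM per group, a test statistic (a score), a p-value and a q-value per row. Annotation and strand setting: not given in the sources used here.

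Recomputing the Benjamini-Hochberg adjustment over the 12311 tested rows returned the deposited q values. FPKM values are not counts, and no values per library were in the table, so the authors' own test was used at a q of 0.05. Fold changes were computed from the deposited FPKM. The members and the 14 other gene lists were chosen with earlier results of these data known, and lists used rows with 1 symbol. The naming rule took the members, the tested family genes with an FPKM of at least 1 in either group, called genes within 500 kb, in each other list up to 2 called genes with the largest statistic or else the 2 most abundant, the 3 nearest genes of each called member, and Map2k1. Some items are not reported here. Other genes named (Lynx1, Gpihbp1, Ly6g, Them6, Arc) are neighbours of the block chosen for their position, after their values were seen. The motifs were also chosen then, as were Cd8a, Ncr1, Klrb1c, Eomes, Ms4a4c, F13a1, Vcan, Nr4a1, Fn1, Cd4, Pecam1, Procr and Mmp9. Fn1, Cd4, Pecam1, Procr and Mmp9 are each the gene of their list with the largest change in FPKM. Without that gene, the order of the summed levels turned.

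Transcript windows and coding identity came from GENCODE M21, promoters from RefSeq. Coding sequences were aligned globally, and promoters with free ends. Starts of loci were written 1-based. Functions were tested on simulated data. Work used Python 3.11.15, numpy 2.4.6, pandas 2.3.3, scipy 1.17.1, matplotlib 3.10.9 and Biopython 1.88. Alternatives changed the threshold, adjustment, source of p, low-value filter, fold, window, pseudocount and scaling.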

Additional observations from a re-analysis of the deposited data

How the results depend on the processing

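The number of Ly6 members called higher was 1 at a q threshold of 0.01, which only the 91 rows at the smallest p passed. It was 4 at an unadjusted p under 0.05, where 3.5% of all tested rows were higher. It was 0 under the Benjamini-Yekutieli adjustment, which could call no row at the smallest deposited p, and 0 with p from the statistic and a normal distribution. The latter alternative was chosen after seeing the data and called 15 of the 12311 tested rows. For the interferon-gamma response the last 2 settings gave 0 and 4 called higher, and for the type I response an unadjusted p under 0.05 gave 3. Scaling to equal FPKM sums lowers every log2 fold change by the same amount (-0.10), and centring the median at 0 moves it by 0.02. The fold of the summed Ly6c1 and Ly6c2 level was then 1.95 and 2.12, and that of Ly6a, Ly6c1, Ly6c2 and Ly6i 2.07 and 2.25. With equal sums Ly6c2 had a log2 fold change of 0.95. Of 28 log2 fold changes of members, Plaur and Cd59a under other pseudocounts and scalings, 0 changed sign. That outcome was fixed in advance: a pseudocount added to both groups cannot change a sign. Neither could the small shifts by scaling for these values. The other counts stayed within 1.5 times. Leaving out each library could not be run, and depth per library is unknown. No paired analysis was possible because the table has 1 pooled value per group.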

Other observations

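Ly6g6d, Ly6g6f and Ly6g5b were found only in rows with several symbols, so they entered no count or median. The authors' deposited table gives the row of Ly6g6d and Ly6g6f at 0.865 and 0.744 FPKM, and the row of Csnk2b and Ly6g5b at 109 and 117 FPKM. Values in such rows cannot be divided between their genes. Ly6g6g, also a Ly6 gene by its symbol and outside the lists, was listed at 0 in both groups in the authors' deposited table.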
